A study of Mus musculus with 4 samples.

Results

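The chemoattractant receptor genes examined here, in macrophages sorted from mouse gastrointestinal stromal tumours, were Cxcr4, Cx3cr1, Ccr1, Ccr2, Ccr7, Ccrl2 and Cmklr1. They were taken as a fixed list, together with every probe set that carries 1 of these symbols alone, which gave 7 genes with 11 probe sets among 12393 genes and 22690 probe sets on the array. The study compared macrophages from mice given imatinib at 600 mg/L in the drinking water with macrophages from vehicle controls. Both groups were mice of a gastrointestinal stromal tumour (GIST) model, a tumour of the gut wall usually driven by the receptor tyrosine kinase Kit; the sources used here name no strain, age or tumour-driving allele. Imatinib inhibits Kit, the platelet-derived growth factor receptors, Abl and the macrophage growth factor receptor Csf1r. Treatment lasted 2 weeks, each group had 8 mice, and the macrophages sorted from collagenase-digested tumours were pooled by group. Each pool was hybridised to 2 Affymetrix arrays from 200 ng of RNA, giving 2 imatinib and 2 vehicle arrays. The design text speaks of duplicates of a pool and the sample titles of biological replicates. All p-values therefore measure how far arrays differ, possibly for technical reasons alone, and not the spread between mice.

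Chemoattractant receptors span the membrane with a bundle of helices and, when a ligand binds, signal through inhibitory G proteins to move the cell toward the source of the ligand. Blood monocytes leave the bone marrow and enter inflamed tissue through Ccr2, whereas macrophages settled in the gut wall carry Cx3cr1, the fractalkine receptor. Chemerin is a chemoattractant protein with a signalling receptor, Cmklr1, and a silent one, Ccrl2, which binds chemerin without signalling and holds it at the cell surface.

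Cxcr4 and Ccrl2 were 2.61-fold and 2.26-fold higher in macrophages from imatinib-treated mice, and Cx3cr1 was 1.25-fold higher. Ccr1 and Ccr2, the receptors for the macrophage inflammatory and monocyte chemoattractant proteins, did not pass the test, nor did Ccr7, the lymph node homing receptor. Cmklr1 was too dim to be tested. Of the 6 receptor genes tested, 3 rose and 0 fell at a Benjamini-Hochberg adjusted p below 0.05 in limma, which fits all genes together and shares their spread. Over all 8156 genes tested, 6.74% rose and 8.85% fell (15.6% called in either direction). The imatinib arrays lay above both vehicle arrays for 4 of the 6 genes, against 26.1% of all tested genes, and below both for Ccr2; in either direction 56.2% of all tested genes had arrays that did not overlap.

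Some facts of the arrays bear on all values. Median signals were 122.3 and 133.7 on the imatinib arrays, against 152.4 and 141.5 on the vehicle arrays, and setting them equal put the median difference of all tested genes at 0.16 on the log2 scale, against -0.02 on the deposited scale. The ratio of 3' to 5' signal for Gapdh, which reports on RNA integrity and labelling, was 2.09 to 2.34 on the imatinib arrays and 2.76 to 2.91 on the vehicle arrays. Of 16 macrophage identity genes tested, 12 were higher with imatinib and 0 lower, with a median log2 difference of 0.41. Among the 12 were Mertk, 2.24-fold, and Itgam, 1.95-fold. Itgam was dim, at 157.1 and 201.7 with imatinib and 88.3 and 64.3 with vehicle. When dim genes were not filtered out, it was not called (limma adjusted p = 0.081), and neither were Aif1 (0.063) and C1qc (0.10). All 13 epithelial genes were lower with a median of -2.18 (Krt19 -2.89, Dsp -2.65). Of these, Cldn4 was not called without the filter (limma adjusted p = 0.071). The identity genes Csf1r, Mpeg1 and C1qa had signals of 24531 or more on every array. In sorted, pooled cells, more cells of a type and more RNA per cell cannot be told apart.

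**Figure D1:**
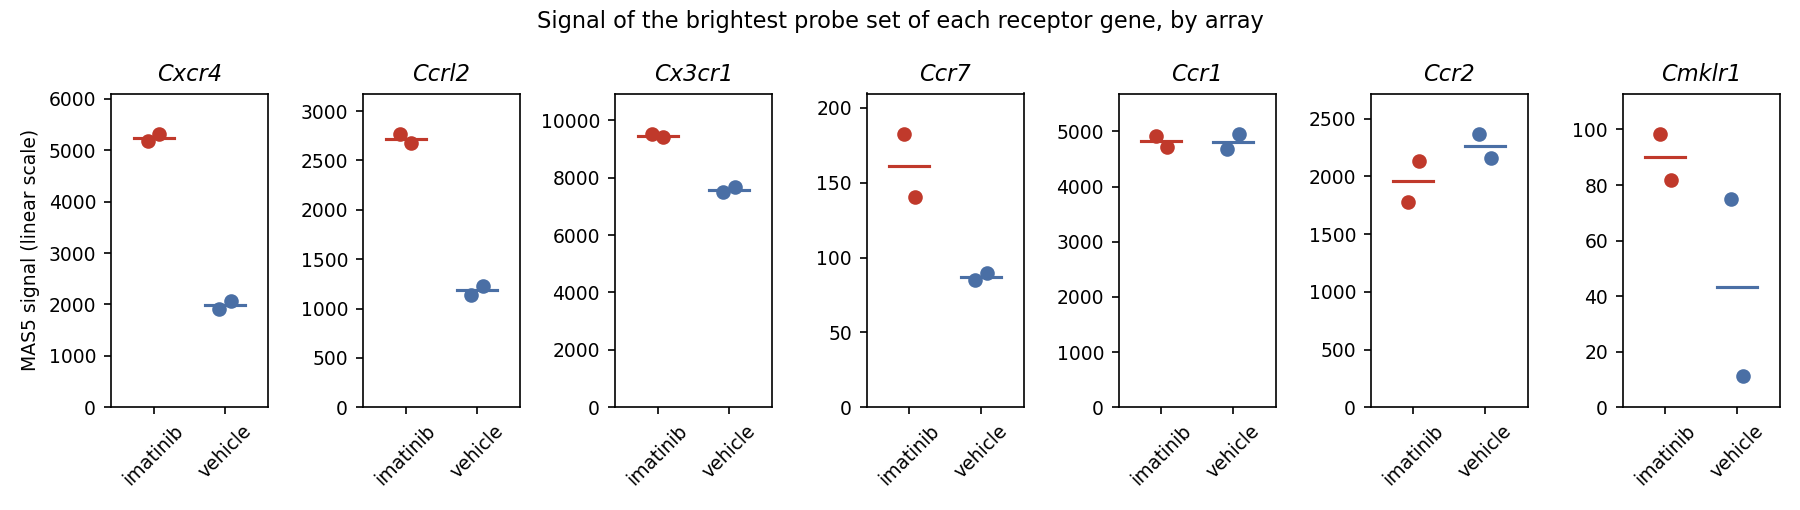
MAS5 signal (linear scale, each axis from 0) of the brightest probe set of each receptor gene, with imatinib arrays in red on the left and vehicle arrays in blue on the right of each panel; points are single arrays and bars the mean of 2. The groups are far apart for Cxcr4 and Ccrl2, lie apart by a smaller margin for Cx3cr1, and overlap for Ccr1.

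Cxcr4 encodes the receptor for Cxcl12, a stromal chemokine that holds haematopoietic cells in the bone marrow. Its single probe set had signals of 5170.4 and 5308 on the imatinib arrays, against 1917 and 2060.35 on the vehicle arrays. Both imatinib arrays stood far above both vehicle arrays, and the arrays of each group lay close together. The means were 5239 ± 97.3 with imatinib and 1989 ± 101.4 with vehicle (SD, n = 2 arrays each). The log2 difference was 1.38 ± 0.08 (SE), a 2.61-fold increase with a 95% interval of 2.30 to 2.96 and an adjusted p = 1.6e-06 in limma. Only 15 of the 8156 tested genes increased more. When the mean of the macrophage identity genes was set equal on all arrays, which lowers every log2 difference by 0.45, Cxcr4 was still higher, by 0.93 (limma adjusted p = 2.5e-05). On that scale 1.36% of all tested genes were called higher and 62.4% lower.

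Ccrl2, the silent chemerin receptor, followed the same course. Its probe set read 2764 and 2679.55 with imatinib, against 1139.9 and 1229 with vehicle. Here too the groups were far apart and the arrays within each group close. The fold was 2.26 with a 95% interval of 1.97 to 2.60 (log2 difference 1.18 ± 0.09, SE; limma adjusted p = 9.4e-06), and the gene ranked 26 by increase among the 8156. With the macrophage identity genes set equal, Ccrl2 was higher by 0.73 (limma adjusted p = 0.00016). The suffix of this probe set marks it as reading several transcripts of the same gene.

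The proximal promoters of both genes are shown because these receptors rose most, with that of Ccr1, whose signal barely differed, beside them. Each run holds the 250 bases before the annotated transcription start, read 5′ to 3′ on the gene's minus strand, from RefSeq on GRCm38.p6. Capitals mark every match to the motifs named after the sequences.
Cxcr4, chr1:128592300-128592549: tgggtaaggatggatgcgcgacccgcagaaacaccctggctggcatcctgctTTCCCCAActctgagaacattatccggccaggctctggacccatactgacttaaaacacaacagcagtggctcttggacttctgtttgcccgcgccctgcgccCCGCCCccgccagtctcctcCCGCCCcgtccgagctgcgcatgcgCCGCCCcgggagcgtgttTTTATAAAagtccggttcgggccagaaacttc
Ccrl2, chr9:111057519-111057768: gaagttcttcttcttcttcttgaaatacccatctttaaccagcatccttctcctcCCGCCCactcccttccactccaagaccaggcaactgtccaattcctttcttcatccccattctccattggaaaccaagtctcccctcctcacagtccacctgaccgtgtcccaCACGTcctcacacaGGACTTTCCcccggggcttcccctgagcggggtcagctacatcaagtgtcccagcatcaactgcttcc
Ccr1, chr9:123968693-123968942: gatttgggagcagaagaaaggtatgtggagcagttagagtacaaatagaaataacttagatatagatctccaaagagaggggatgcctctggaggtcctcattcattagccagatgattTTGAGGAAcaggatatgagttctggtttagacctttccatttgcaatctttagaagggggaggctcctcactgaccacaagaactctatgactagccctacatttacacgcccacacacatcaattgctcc

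A set of 7 motifs, chosen after the sequences had been seen, were searched on both strands in the 6 receptor promoters found in the RefSeq table and in those of all 27025 genes in that table. Ccrl2 alone of the 6 held the kappaB form GGNNTTTCC, the letters bound by NF-kappaB factors, as GGACTTTCC from base -68 to base -60 counted from the start; 4.84% of all promoters hold it. The hypoxia response core ACGTG stood in Ccrl2 and Cmklr1 (16.6% of all promoters), and the GC box GGGCGG in Ccrl2 and in Cxcr4, where there are 3 copies (32.9%, or 60% of the promoters of tested genes found in the table). Cxcr4 also had the TATA box TATAAA, which overlaps its own match on the other strand (13% of all promoters, 6.98% of those of tested genes). The C/EBP form TTNNGNAA was found in Cxcr4, Ccr1 and Ccr2 (36.9%). The AP-1 form TGANTCA (6.87%) and the PU.1 form GAGGAAGT (2.44%) matched in none of the 6 windows, and Cx3cr1 had no match to any of the 7. These matches are letters in a window and were not tested as binding sites.

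Cx3cr1, the fractalkine receptor of resident gut macrophages, rose by less. Its brighter probe set read 9506 and 9418 with imatinib, against 7503 and 7660.03 with vehicle. The groups did not overlap, but the gap was small beside those of Cxcr4 and Ccrl2. The fold was 1.25 with a 95% interval of 1.12 to 1.39 (log2 difference 0.32 ± 0.07, SE; limma adjusted p = 0.012). The second probe set, far dimmer, read 373.6 and 528.9 with imatinib and 344.8 and 332.8 with vehicle, 1.29-fold higher, and did not pass on its own (limma adjusted p = 0.21 over 13576 probe sets). With the macrophage identity genes set equal, Cx3cr1 lay on the other side of 0, at -0.13 (limma adjusted p = 0.072). Its call was also lost without vehicle replicate 1 (limma adjusted p = 0.084), without vehicle replicate 2 (0.051) and without the mean-variance trend in the fit (0.15).

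Ccr1, a receptor for Ccl3 and Ccl5 on monocytes, macrophages and neutrophils, differed little between the groups. The brighter of its probe sets read 4915 and 4726 with imatinib, against 4680.4 and 4946 with vehicle, so that the groups overlapped. The fold was 1.00 with a 95% interval of 0.889 to 1.13 (limma adjusted p = 0.99). The dimmer probe set read 1097.6 and 1024 with imatinib and 989.9 and 999.5 with vehicle, a log2 difference of 0.09 ± 0.08 (SE). The sign of the Ccr1 difference depends on the scaling: it was 0.20 with array medians set equal, -0.05 under quantile normalization and -0.45 with the macrophage identity genes set equal, where it passed as lower (limma adjusted p = 0.00066).

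Ccr2, which binds Ccl2 and brings monocytes into tissue, had 3 probe sets that did not all point one way. The brightest read 1779.95 and 2130.4 with imatinib, against 2363 and 2154.5 with vehicle. Both imatinib values lay below both vehicle values, though the second imatinib and the second vehicle array nearly coincided. The log2 difference was -0.21 ± 0.11 (SE; 0.865-fold, 95% interval 0.736 to 1.02; limma adjusted p = 0.23). It was -0.08 without imatinib replicate 1, -0.34 without imatinib replicate 2, -0.14 without vehicle replicate 1, -0.07 averaged over probe sets and -0.01 with array medians set equal, and did not pass in any of these fits. The second probe set read 366.6 and 207.9 with imatinib and 252.6 and 403.6 with vehicle, with overlapping groups and a log2 difference of -0.19 ± 0.30. The dimmest read 168.8 and 163.5 with imatinib and 129 and 152.9 with vehicle, a log2 difference of 0.20 ± 0.21. With the macrophage identity genes set equal the brightest probe set was lower, at -0.66 (limma adjusted p = 0.0010).

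**Figure D2:**
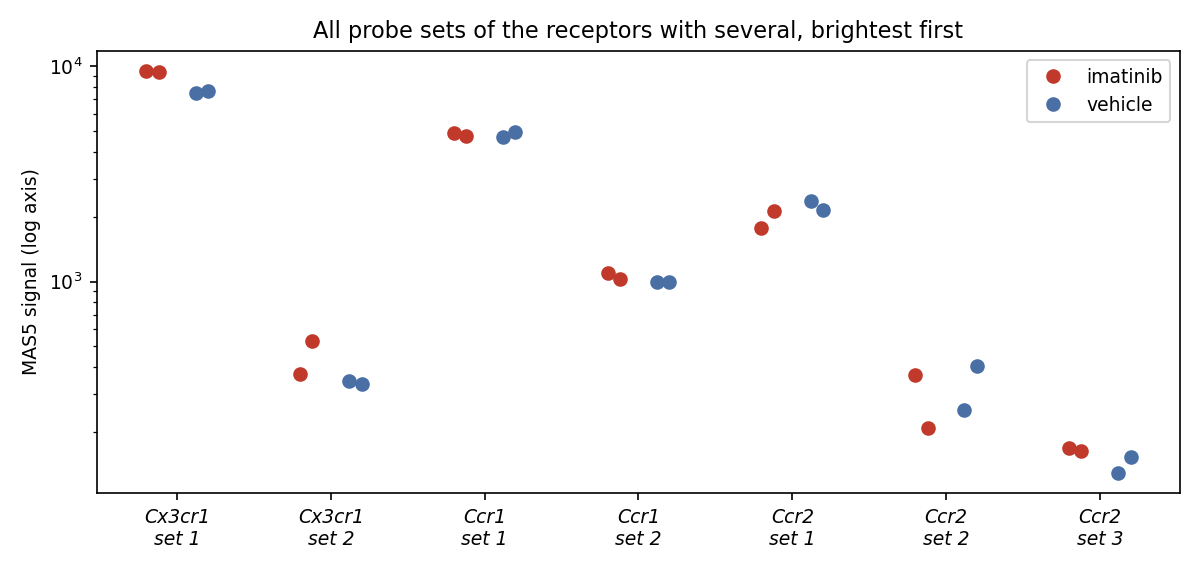
MAS5 signal (log axis) of every probe set of Cx3cr1, Ccr1 and Ccr2, the receptor genes with several, with imatinib arrays in red left of vehicle arrays in blue; each point is 1 array. Levels of different probe sets are not comparable. Both Cx3cr1 sets lie higher with imatinib without overlap. Of the Ccr1 sets, the brighter overlaps between groups and the dimmer lies slightly higher with imatinib. The third Ccr2 set runs against the other Ccr2 sets.

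Ccr7 guides mature dendritic cells and naive T cells to lymph nodes. Its single, dim probe set read 182.3 and 140.2 with imatinib, against 84.7 and 89.7 with vehicle. Both imatinib arrays were above both vehicle arrays, but lay well apart from each other. The log2 difference was 0.69 ± 0.24 (SE; 1.61-fold, 95% interval 1.12 to 2.33; limma adjusted p = 0.082). It passed in limma with array medians set equal (0.84, adjusted p = 0.010), narrowly under quantile normalization (0.84, adjusted p = 0.046) and in a fit on gene means over probe sets (adjusted p = 0.047), and was 0.23 with the macrophage identity genes set equal (limma adjusted p = 0.38).

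Cmklr1, the signalling chemerin receptor, stayed below the signal filter of 82.9. Its probe set read 98.2 and 81.6 with imatinib, against 75.1 and 11.3 with vehicle. The difference of the group means rests on the second vehicle array, and without the filter the log2 difference was 0.84 ± 0.44 (SE; limma adjusted p = 0.35). No change in Cmklr1 can be read at this signal.

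**Figure D3:**
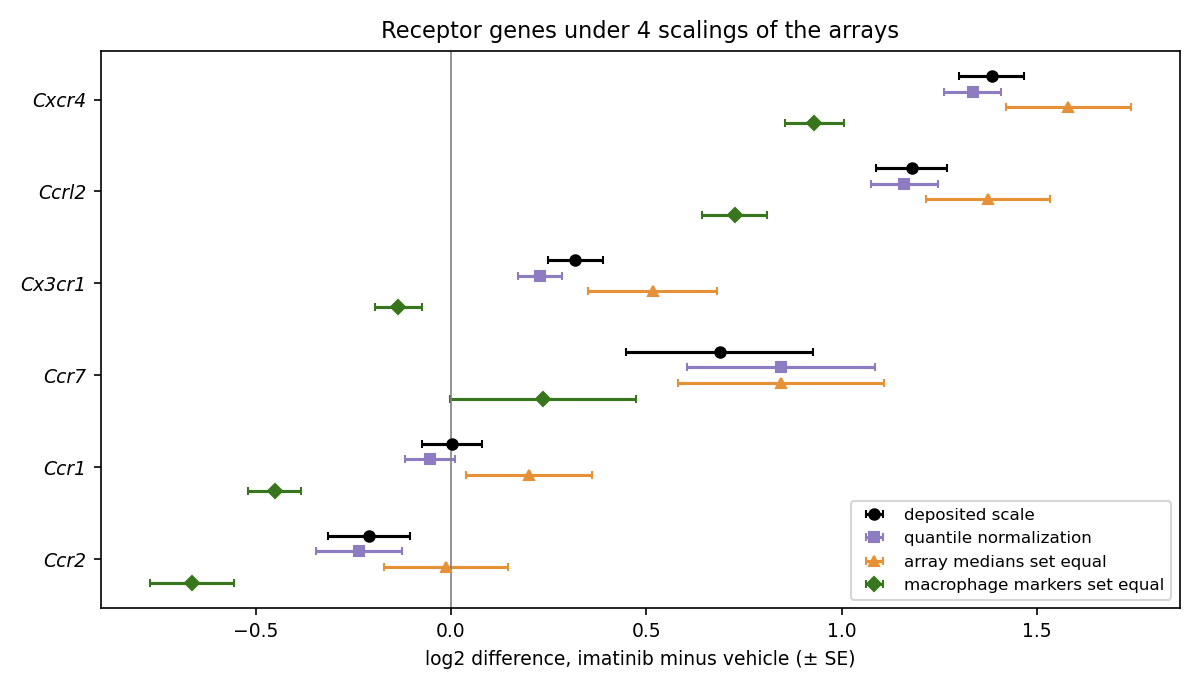
Log2 difference (imatinib minus vehicle, ± SE, n = 2 arrays per group) of the 6 tested receptor genes on the deposited scale and under 3 other scalings of the arrays. Cxcr4 and Ccrl2 stay to the right of 0 under all 4 scalings, Cx3cr1 and Ccr1 change sign, and Ccr2 stays below 0.

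The ligands of these receptors moved in both directions. Of 12 ligand genes on the array, 6 rose and 2 fell, with a median log2 difference of 0.26, beside 6.74% and 8.85% and a median of -0.02 for all tested genes; with the macrophage identity genes set equal 2 were higher and 7 lower, where 62.4% of all tested genes were lower. Cxcl12, the Cxcr4 ligand, read 146.3 and 160.03 with imatinib, against 303.5 and 286.7 with vehicle. The groups were apart, and it was lower where its receptor was higher (log2 difference -0.82 ± 0.17, SE; limma adjusted p = 0.0090). A second, dimmer Cxcl12 probe set read 119.4 and 79.6 with imatinib and 69.6 and 83.9 with vehicle and did not share this fall. Averaged over its probe sets, Cxcl12 had a log2 difference of -0.28 (limma adjusted p = 0.35), and without vehicle replicate 1 the adjusted p of the brighter set was 0.056. Rarres2, which encodes chemerin, was also lower by its brightest probe set (287.6 and 372.1 with imatinib, 459.5 and 519.3 with vehicle; -0.54 ± 0.16, limma adjusted p = 0.042). The call was lost under quantile normalization (-0.48, limma adjusted p = 0.063), with array medians set equal (-0.35, 0.12), and without imatinib replicate 1 (0.25), vehicle replicate 1 (0.064) or vehicle replicate 2 (0.16). Without the filter on low signals the Rarres2 call was lost too (limma adjusted p = 0.11). Another Rarres2 probe set read 301.8 and 271.8 with imatinib, against 461.9 and 275.5 with vehicle. The fractalkine gene Cx3cl1 did not pass (132.6 and 108.3 with imatinib, 204.9 and 143.05 with vehicle; limma adjusted p = 0.28). Cxcl12 and chemerin are known as products of stromal cells, and of 11 fibroblast genes tested 7 were lower and 0 higher (median -0.97; Loxl1 -1.51, Pcolce -1.35), with summed signals of 3722 and 4149.6 on the imatinib arrays and 7746 and 8498 on the vehicle arrays. Of the 7, Col1a1 was not called without the filter on low signals (limma adjusted p = 0.17). The part of fibroblast RNA in these ligand values was not tested.

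Among the Ccr1 ligands, Ccl6 rose 1.80-fold (limma adjusted p = 7.0e-05), Ccl9 1.34-fold by its brighter probe set and Ccl5 1.27-fold. The dimmer Ccl9 probe set lay further apart, with 613.9 and 748.6 with imatinib and 319 and 357.9 with vehicle. Ccl4, a related macrophage inflammatory protein, rose 1.21-fold. The calls of Ccl4 and Ccl5 were each lost when imatinib replicate 1, vehicle replicate 1 or vehicle replicate 2 was left out (limma adjusted p = 0.0997 to 0.14 for Ccl4 and 0.069 to 0.17 for Ccl5). Without the filter on low signals, Ccl4 and Ccl5 were not called either (limma adjusted p = 0.078 and 0.054). Ccl4 was also not called under quantile normalization (limma adjusted p = 0.052). Ccl3 was 1.18-fold higher without passing (7633 and 7126 with imatinib, 6453 and 6059 with vehicle, limma adjusted p = 0.067). Among the Ccr2 ligands, Ccl2, the main monocyte attractant, rose 1.82-fold, with 423.8 and 446.7 on the imatinib arrays and 217.1 and 232.04 on the vehicle arrays. Ccl7 (log2 difference -0.03) and Ccl12 (-0.21, limma adjusted p = 0.10) did not pass, though Ccl12 was called as lower under quantile normalization (-0.30, limma adjusted p = 0.011). Ccl8, a further monocyte chemoattractant protein, rose 1.42-fold. With the macrophage identity genes set equal, Ccl6 (0.39) and Ccl2 (0.41) were still higher. The log2 difference was then -0.18 for Ccl4, -0.11 for Ccl5, -0.03 for the brighter Ccl9 probe set and 0.06 for Ccl8. The dimmer Ccl9 probe set was not fitted on that scale. Ccl19 and Ccl21a, the Ccr7 ligands, were not analysed here.

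**Figure D4:**
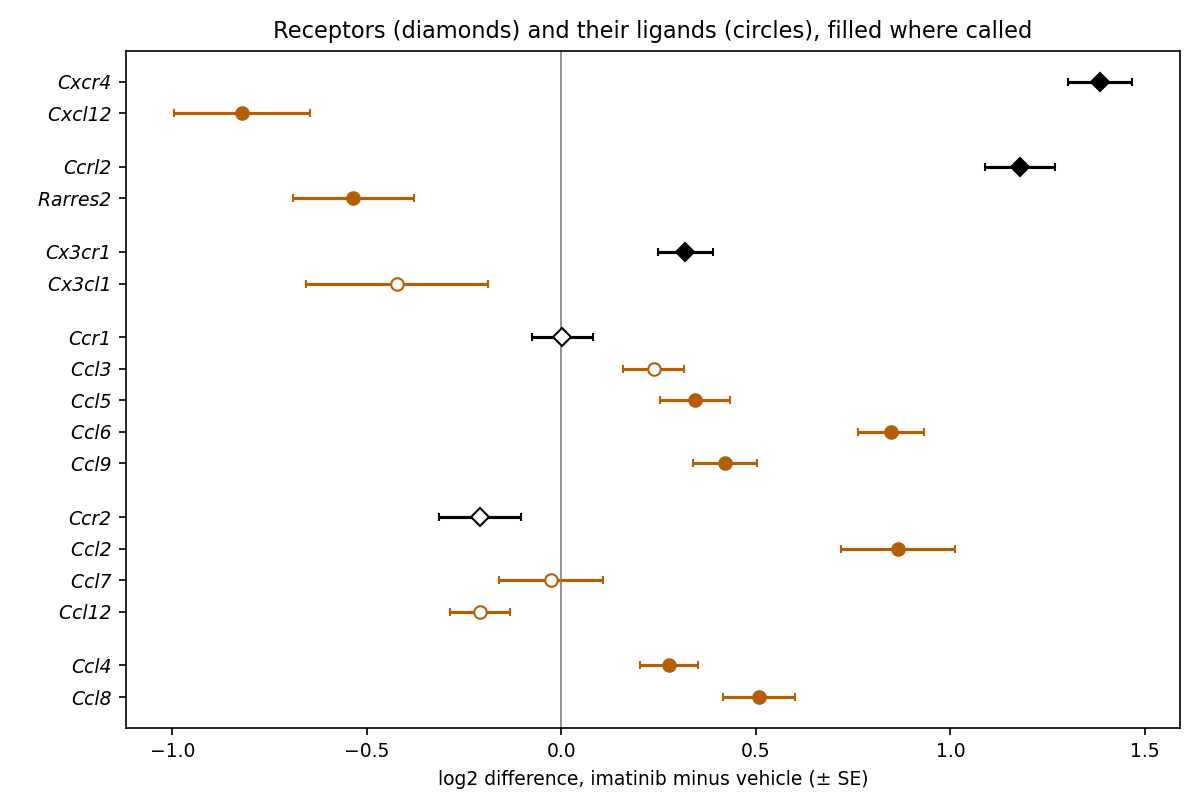
Log2 difference (imatinib minus vehicle, ± SE, n = 2 arrays per group) of receptors, drawn as black diamonds, each followed by its ligands as brown circles; Ccl4 and Ccl8 stand alone, and filled symbols passed at an adjusted p below 0.05 in limma. Cxcr4 and Ccrl2 lie right of 0 with Cxcl12 and Rarres2 left of it, whereas Ccr1 lies at 0 with 3 of its 4 ligands called as higher.

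The remaining chemokine receptors gave low signals and no call on the deposited scale, where 15.6% of all tested genes were called in either direction. Of 15 on the array, 10 were tested and 0 passed in limma (3 at an unadjusted p under 0.05), with a median log2 difference of -0.18; 1, Cxcr3, was higher with array medians set equal (15.3% of all tested genes were), and 6 were lower with the macrophage identity genes set equal (62.4% of all tested genes were). Cxcr3, of activated T and NK cells, read 465.7 and 520.6 with imatinib, against 360.6 and 391.6 with vehicle (log2 difference 0.36, limma adjusted p = 0.10), and Cxcr5, of B cells, had 0.49 (adjusted p = 0.35). The largest decrease was that of Ccr10, a receptor of skin and mucosal lymphocytes (77.2 and 110.8 with imatinib, 184.8 and 170.2 with vehicle; -0.75, limma adjusted p = 0.059), which was called as lower when probe sets were averaged per gene (limma adjusted p = 0.040), without imatinib replicate 2 (0.043) and with the macrophage identity genes set equal (0.0030). The log2 difference was -0.36 for Cxcr6, -0.35 for the scavenging receptor Ackr2, -0.31 for Ccr6, -0.21 for Ackr3, -0.14 for Ackr1, -0.002 for the dendritic cell receptor Xcr1 and 0.12 for the gut homing receptor Ccr9. Ccr3, Ccr4, Ccr8, Cxcr2 and Ackr4 stayed below the filter, with no signal above 64.3.

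Of 5 other chemoattractant receptors tested, 2 rose and 0 fell, beside 6.74% and 8.85% of all tested genes. Fpr2, a formyl peptide receptor, rose 1.67-fold, with 371.3 and 387.4 on the imatinib arrays and 163.4 and 278.6 on the vehicle arrays (limma adjusted p = 0.038). P2ry12, a receptor for adenosine diphosphate, rose 1.47-fold, with 630.5 and 748.9 on the imatinib arrays and 437.5 and 479.4 on the vehicle arrays (limma adjusted p = 0.016). Among 18 genes that carry the signal from these receptors, 1 rose and 1 fell (median 0.08). That is 5.56% each way, near the shares over all tested genes. Rac2, a small GTPase of leukocyte migration, rose 1.44-fold (limma adjusted p = 0.0085, or 0.060 without imatinib replicate 2), and Gnai1, a G protein subunit, had a log2 difference of -1.07 (limma adjusted p = 0.036). Gnai1 was dim, at 44.5 and 45 on the imatinib arrays and 103.5 and 159.4 on the vehicle arrays, and its other probe sets, dimmer still, read 41.8 and 67.9 with imatinib against 45.1 and 25.5 with vehicle, and 32.2 and 5.93 with imatinib against 33.6 and 68.4 with vehicle. The Gnai1 call was lost whichever array was left out (limma adjusted p = 0.053 to 0.25), that of Fpr2 without imatinib replicate 1 (0.094), imatinib replicate 2 (0.097) or vehicle replicate 1 (0.19), and that of P2ry12 without imatinib replicate 2 (0.11) or vehicle replicate 1 (0.073). Without the filter on low signals, Fpr2 (limma adjusted p = 0.13) and Gnai1 (0.078) were not called either. Gnai2, the main leukocyte relative of Gnai1, had a log2 difference of 0.11 (limma adjusted p = 0.39). With the macrophage identity genes set equal, 0 of the 5 were higher and 2 lower, and 0 of the 18 were higher and 11 lower, beside 62.4% of all tested genes lower. With array medians set equal, 3 of the 5 and 6 of the 18 were higher and 0 and 1 lower, beside 15.3% of all tested genes higher and 6.66% lower.

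**Figure D5:**
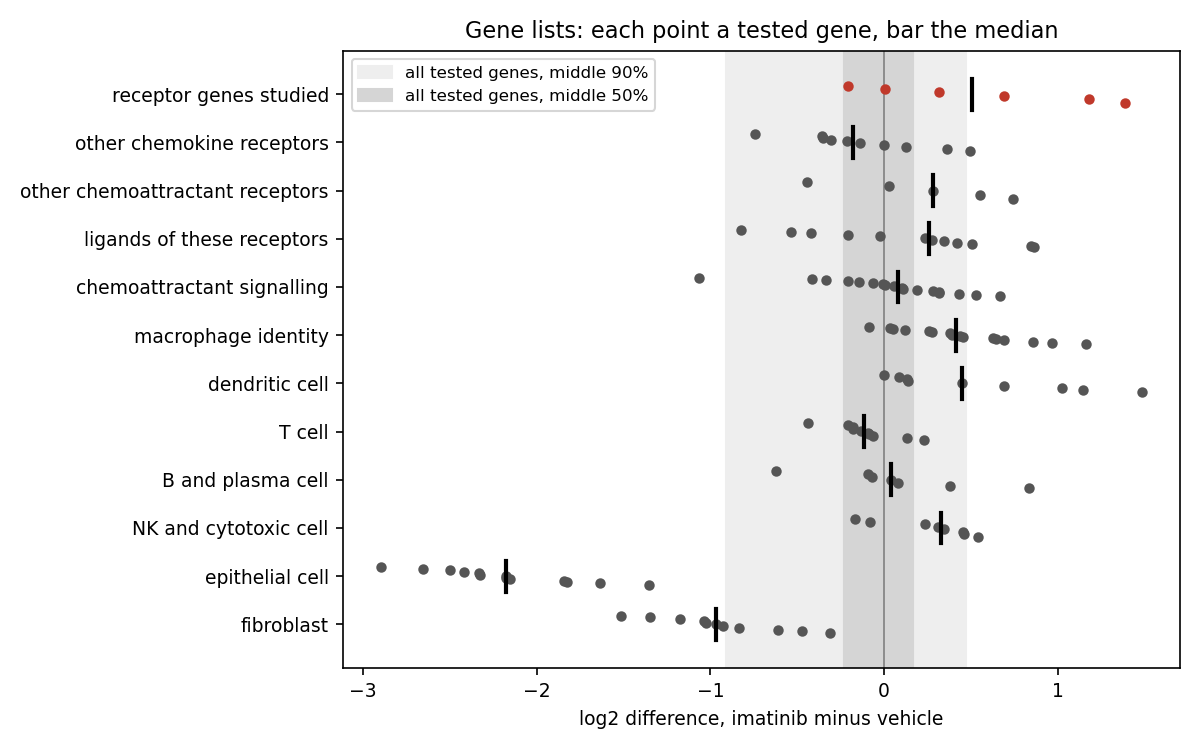
Log2 difference (imatinib minus vehicle) of every tested gene of 12 lists, with the receptor genes studied in red at the top; black bars are list medians and the shaded bands hold the middle 50% and 90% of all tested genes. Cxcr4, Ccrl2 and Ccr7 lie beyond the 90% band, the other chemokine receptors spread around 0, and epithelial and fibroblast genes lie to the left.

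Lymphocytes and dendritic cells also carry Cxcr4 and Ccr7. The counts of cell type genes below stand beside 6.74% of all tested genes called higher and 8.85% called lower. Of 10 T cell genes tested, 0 passed in limma (0 at an unadjusted p under 0.05; Zap70 -0.21, Cd3g -0.14), and their summed signals were 3123 and 3444 on the imatinib arrays, against 3916 and 3208 on the vehicle arrays. These sums overlapped between the groups. Of the single genes, 1 was higher and 1 lower on both imatinib arrays than on both vehicle arrays, neither past the test. Over all tested genes, 56.2% had arrays that did not overlap in either direction. Of 7 B and plasma cell genes, 2 were higher (Cd22 1.79-fold) and 1 lower (Ighm -0.62), with summed signals of 43093 and 40940.2 with imatinib and 42063 and 44593 with vehicle; without Jchain, the immunoglobulin joining chain gene that dominates it, the sums were 10255 and 9344 with imatinib and 12766 and 12806 with vehicle. Of 9 dendritic cell genes tested, 4 were higher and 0 lower (Cd209a 2.80-fold, Flt3 2.21-fold), with a median of 0.45. The other 5 did not pass (Batf3 0.45, Itgae 0.13, Irf8 0.13, Fscn1 0.08, Xcr1 -0.002). With the macrophage identity genes set equal 2 were higher and 2 lower, with a median of -0.005. On that scale 1.36% of all tested genes were higher and 62.4% lower. Flt3 was dim, at 131.5 and 152.2 with imatinib and 30.8 and 66.2 with vehicle. It passed the signal filter through the imatinib arrays, and without the filter was not called (limma adjusted p = 0.081). The summed signals of the list were 22437 and 21322 with imatinib, against 12776 and 13990.3 with vehicle. Most of that sum was Cd83 (14877 and 13894 with imatinib, 6660 and 7495 with vehicle), far brighter than Flt3. Which cells gave the Cd83 signal was not tested. The other genes of the list summed to 7560 and 7428 with imatinib, against 6116 and 6495 with vehicle. Monocyte genes were higher in 4 of 6 tested (F13a1 1.91-fold, Chil3 1.78-fold) and lower in 1 (Fn1, log2 difference -0.58). Plac8 had -0.27 without passing (limma adjusted p = 0.076). Under quantile normalization 4 were higher and 2 lower, beside 8.57% of all tested genes lower. With the macrophage identity genes set equal 1 was higher and 3 lower, beside 62.4% of all tested genes lower. Summed signals of the monocyte list were 15373 and 14786 with imatinib, against 12997 and 13130.4 with vehicle. Without Ms4a6c, the brightest, they were 7048 and 6455 with imatinib and 6315 and 6258 with vehicle. NK and cytotoxic genes were higher in 3 of 8 and lower in 0 (Gzma 1.45-fold, Klrd1 1.38-fold). Their sums were 5816 and 5535 with imatinib, against 4411 and 4406 with vehicle. Among 4 neutrophil genes 1 was higher (Csf3r 1.62-fold). Summed signals over 9 neutrophil genes were 1008.5 and 1022 with imatinib, against 771.3 and 684.2 with vehicle. Without Csf3r the sums overlapped, at 517.2 and 603 with imatinib and 531 and 388.3 with vehicle. In the GIST and interstitial cell list 3 of 5 were lower (Edn3 -0.91, Kit -0.64). Without the filter on low signals, Klrd1, Csf3r and Edn3 were not called (limma adjusted p = 0.065, 0.052 and 0.080). The same held for Kmo of the dendritic cell list (0.092) and Elovl6 of the GIST list (0.084). It also held for Cd79b of the B cell list (0.080) and Ccl5 of the NK list (0.054). No gene of 7 endothelial genes (Kdr 0.03, Esam -0.01) or 3 mast cell and eosinophil genes (Gata2 0.02, Prg2 0.83) passed. The part of these cells in the receptor values was not tested.

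Genes with the most similar profile were found for each tested receptor by the distance between log2 signals over the 4 arrays, after each gene's own mean was subtracted. This measure uses the contrast itself and describes likeness in size over 4 arrays only. Nearest to Cxcr4 were Cxcl1, a neutrophil-attracting chemokine (2.52-fold higher), the activating receptor gene Pilrb1 (2.84-fold) and Mrc1, the mannose receptor (2.52-fold). Nearest to Ccrl2 were the kinase gene Stk17b (2.25-fold), the engulfment receptor gene Mertk (2.24-fold) and the lectin gene Clec10a (2.38-fold). Cx3cr1 had Nfe2l2, Fyb and Lrrc8a beside it, with log2 differences of 0.31 to 0.33, and Ccr7 had Ahr (0.69), Trim44 (0.63) and Sall2 (0.59). The closest to Ccr1 were Cavin2 (-0.0015), Mettl17 (0.0013) and Sertad3 (0.013), and to Ccr2 Ric8a (-0.23), Nus1 (-0.23) and Fgfr4 (-0.19).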

How the data were processed

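The deposited table holds a linear MAS5 signal intensity for each probe set, which the authors computed in Affymetrix Expression Console according to the submitters' processing notes; versions, settings and genome build: not given in the sources used here. The method brings all arrays to 1 trimmed mean, so that bright transcripts shift the others, and dim signals are noisy. No detection calls were used.

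Signals were analysed as log2(signal + 32), on which folds understate changes of dim genes. A gene was represented by its brightest probe set with 1 symbol, kept if its mean signal reached the 40th percentile (82.9) of the 22626 probe sets that are not controls. The groups were compared in limma 3.58.1 (lmFit, then eBayes with trend, two-sided p-values; 2 residual and 8.39 prior degrees of freedom) under R 4.3.3, with Benjamini-Hochberg adjustment over 8156 genes. Differences are imatinib minus vehicle. On simulated arrays with the spread of these 8156 genes, the fit called 38% of 100 genes changed by 0.5 and 86% of 100 changed by 1 on the log2 scale, and 10 unchanged genes. The members and gene lists were chosen with earlier results of these data known. Of 212 list entries, 182 were on the array. Named are all receptor and ligand genes, and further pathway genes past the threshold (up to 4 each way, or the 2 brightest). Also named are 2 genes of each marker list and the 3 nearest profiles of each tested receptor. Outside this rule are Gnai2, Csf1r, Mpeg1, C1qa, Aif1, C1qc, Cldn4, Col1a1, Cd79b, Jchain, Elovl6, Ms4a6c, Fn1, Plac8, Cd83, Batf3, Fscn1, Itgae, Irf8 and Kmo. They were picked with their values known. Alternatives were another pseudocount, other filters, 3 scalings, other uses of probe sets, no variance trend, a replicate block, and each array left out. The number of arrays limits the precision.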

Additional observations from a re-analysis of the deposited data

How the results depend on the processing

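Cxcr4 and Ccrl2 kept their direction and their call under all 15 alternatives run, with log2 differences of 0.93 to 1.58 for Cxcr4 and 0.73 to 1.37 for Ccrl2. Cx3cr1 was 0.32 without the variance trend and then not called, and -0.13 with the macrophage identity genes set equal; with 1 array left out in turn it ran from 0.30 to 0.33 and was called in 2 of 4 fits. Ccr7 was called at 0.84 with array medians set equal and also at 0.84 after quantile normalization, at 0.69 when probe sets were averaged per gene, and fell out under the 60th percentile filter. Ccr1 was -0.053 under quantile normalization and -0.45 with the macrophage identity genes set equal, and ran from -0.037 to 0.042 with 1 array left out. Ccr2 was called as lower only with the macrophage identity genes set equal (-0.66), where 2 receptor genes were lower in all, beside 62.4% of all tested genes.

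Over all genes, 550 rose and 722 fell on the deposited scale, so that 43.2% of calls were higher. The number higher was 356 without a filter, 842 with each probe set on its own, 196 without the variance trend, 1245 with array medians set equal (69.6% of calls) and 111 with the macrophage identity genes set equal (2.13%; 5092 lower), and 294 to 461 with 1 array left out. The causes were not tested, beyond the shifts of scale that these settings impose. The replicate numbers pair nothing that the labels name, and deviations of same-numbered arrays correlated at -0.13 across genes; a replicate block gave 421 higher and 634 lower genes, with 3 receptor genes higher, and changed no call of the receptors studied, while Ccl4 (limma adjusted p = 0.071), Ccl5 (0.051) and Gnai1 (0.063) were no longer called. With 1 array left in a group, that array is assumed to vary like the others.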
